A study of Mus musculus with 8 samples.

Results

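NSC636819 (NSC) was compared with vitamin B12 in mouse embryonic fibroblasts (MEFs) during early reprogramming, from raw RNA-seq counts of reads per gene. The comparison used 4 of the 8 libraries of the series, 2 with NSC and 2 with B12, and all 19392 genes that passed a filter on low counts. MEFs came from independent embryos named 61.3 and 61.5, each of which gave 1 library per treatment, so that every NSC library has a B12 library of the same embryo. The cells were C57BL/6 with the genotype Rosa26-rtTA +/T and Tet-O-OSKM +/T, in which doxycycline switches on a cassette of Oct4, Sox2, Klf4 and Myc (OSKM). All cells, controls included, received doxycycline in iPSC medium with the named compounds for 72 h. NSC was given at 10 µM and B12 at 2 µM. The other libraries had 100 µM S-adenosylmethionine (SAM), or 2 µM B12 together with PF-9366 at 2 µM, an inhibitor of MAT2A (B12 + MAT2Ai). The sample labels give doxycycline at 1 µg/mL, whereas the series description gives the same figure in mg/mL.

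The medium with NSC had no added B12, so the presence of NSC and the absence of added B12 cannot be told apart in this comparison. A library with doxycycline alone was not analysed here. MEF preparations are mixed, and the libraries held transcripts of cells other than fibroblasts. All 10 fibroblast markers were measured, at 126 to 38912 CPM (counts scaled to library size) in the NSC and B12 libraries. All 9 macrophage markers were present as well, at 13.4 to 3106 CPM. In bulk RNA, fewer cells of a type and less RNA per cell cannot be told apart.

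KDM4A and KDM4B remove methyl groups from histone H3 at lysine 36 and lysine 9, and NSC inhibits both enzymes. Trimethylated lysine 36 (H3K36me3) lies over the bodies of transcribed genes and restrains initiation of transcription inside them. The study included NSC as a compound that acts on H3K36me3 by another route than B12. Type I interferons act through the receptors IFNAR1 and IFNAR2 and the kinases JAK1 and TYK2, and the transcription factors they switch on bind the interferon-stimulated response element (ISRE) in the promoters of antiviral genes, several of which encode the sensors and factors that keep the response going.

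Genes of the interferon response were lower with NSC than with B12 in both MEF lines, and with 52 of 315 they were the list with most genes among those that fell. Class I antigen presentation genes and several macrophage genes fell by smaller amounts. Far fewer genes rose, led by Ahrr, the repressor of the aryl hydrocarbon receptor. The genes for KDM4 enzymes, H3K36 methyltransferases, the OSKM factors and fibroblast identity had no called member. Of the 19392 genes, 370 (1.91%) were called in edgeR's quasi-likelihood test at an adjusted p below 0.05. These were 55 genes that rose (0.284%) and 315 that fell (1.62%). Counts of genes that rose or fell against B12 in each list below are to be read beside these shares.

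The called genes had the same sign in both MEF lines in all 370 cases. A test with MEF as a term favours such genes, so this is not separate evidence. Over all 19392 genes tested, 5639 were lower in both MEF lines and 5344 were higher in both. Among the 315 that fell, 98 did so by more than 2-fold, and both NSC libraries lay below both B12 libraries for 191. Over all genes tested, both NSC libraries lay below both B12 libraries for 15.1%. Among the 55 that rose, 2 did so by more than 2-fold, and both NSC libraries lay above both B12 libraries for 43, against 15.9% of all genes tested. The difference was larger in MEF 61.3 for 224 of the genes that fell and for 40 of those that rose. Over all 19392 genes tested, it was larger in MEF 61.3 for 12033. The number of calls depended on single libraries. It was 38 when the NSC library of MEF 61.3 was left out, 199 when that of MEF 61.5 was, and 780 when the MEF 61.5 library with B12 was. Without MEF as a term in the model 2 genes were called, Ahrr and Cxcl9.

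**Figure D1:**
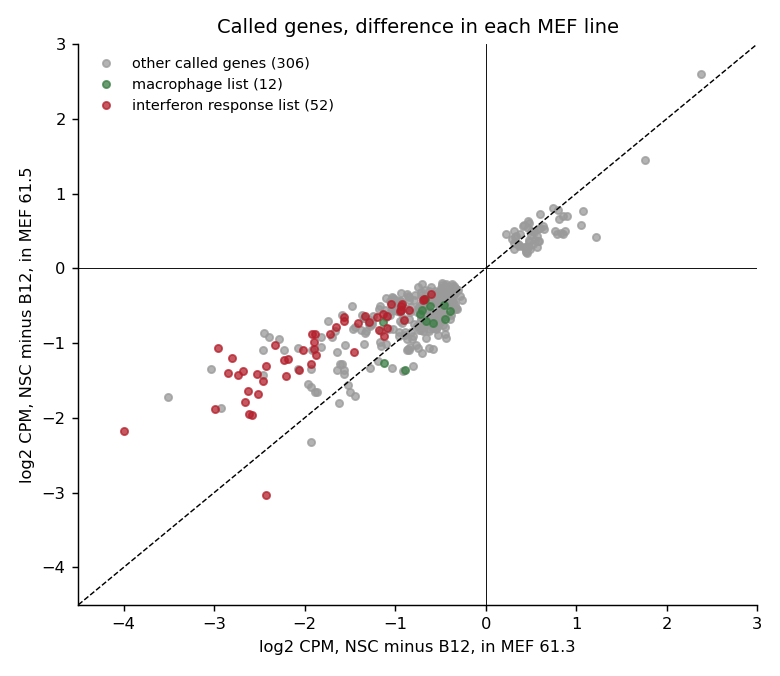
Differences in log2 CPM between NSC and B12 for the 370 called genes, in MEF 61.3 (horizontal axis) and MEF 61.5 (vertical axis), coloured by list. The dashed line marks equal differences; most interferon response genes lie above it on the lower left, with a larger difference in MEF 61.3.

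Because the ISRE is a site through which interferon signalling reaches target genes, promoter stretches of 6 genes that fell are printed below. Their matches to the core GAAANNGAAA are in capitals, on either strand (TTTCNNTTTC on the other). The printed stretches show the element once in Cxcl10, and in pairs or longer runs in the others. The sequences are from RefSeq (GRCm38.p6), read 5′ to 3′ along the strand of the gene, and all lie upstream, within 250 bases before its RefSeq start (the Gbp3 stretch reaches past the start of the gene in the GENCODE annotation). They come from Isg15 (chr4:156200845-156200926, minus strand), Ifit1 (chr19:34640755-34640843, plus strand), Ifit3 (chr19:34583343-34583446, plus strand), Oas1a (chr5:120907526-120907575, minus strand), Gbp3 (chr3:142559969-142560043, plus strand) and Cxcl10 (chr5:92349063-92349132, minus strand).
Isg15: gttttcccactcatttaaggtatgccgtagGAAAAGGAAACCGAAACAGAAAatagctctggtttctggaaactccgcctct
Ifit1: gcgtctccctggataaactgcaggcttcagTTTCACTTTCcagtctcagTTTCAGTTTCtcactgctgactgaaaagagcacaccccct
Ifit3: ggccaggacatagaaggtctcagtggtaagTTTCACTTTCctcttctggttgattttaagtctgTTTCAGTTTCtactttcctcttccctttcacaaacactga
Oas1a: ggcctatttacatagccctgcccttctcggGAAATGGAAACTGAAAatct
Gbp3: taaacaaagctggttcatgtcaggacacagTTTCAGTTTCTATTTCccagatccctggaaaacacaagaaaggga
Cxcl10: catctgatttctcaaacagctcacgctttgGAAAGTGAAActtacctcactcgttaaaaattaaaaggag

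A RefSeq promoter was matched by symbol for 225 of the 315 genes that fell, and 59 of them (26.2%) held this core in the 250 bases before the start. The core was present in 0 of 34 promoters of genes that rose and in 408 of 12008 promoters of all genes tested (3.4%). Among the interferon response genes described next it was present in 21 of 40 (52.5%), and among genes that fell but are not in that list, in 38 of 187 (20.3%). Overlapping matches were counted. Among genes that fell and are not printed, Rsad2, B2m and Oas3 held 1 match each, and Oas1g, Ifit3b and Gm12250 held 2 each. Irf7, Irf9, Ifi44, Oasl1 and Cxcl9 had no match to the ISRE core in this window.

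Of 55 measured interferon response genes, 52 fell with NSC and 0 rose, and the median log2 fold change of the list was −1.43, beside −0.0017 over all genes tested. The median difference was −1.87 in MEF 61.3 and −0.90 in MEF 61.5. Both NSC libraries lay below both B12 libraries for 51 of the 55. The mean log2 CPM over the list was 3.96 (MEF 61.3) and 3.91 (MEF 61.5) with NSC, against 5.70 and 4.93 with B12. The NSC libraries were thus close to each other, while the B12 library of MEF 61.3 was the higher of its pair for 53 of the 55 genes. The 3 genes of the list that were not called were Isg20, Ifi27 and Irf1, with log2 fold changes of −0.48 ± 0.16, 0.20 ± 0.13 and 0.09 ± 0.07 (± SE throughout). Without the NSC library of MEF 61.3, 6 genes of the list were called, with a median of −1.24. With robust estimation of the spread 17 were called, and without MEF as a term 1 was called.

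The level of this list in the remaining libraries was nearer to B12 than to NSC. Mean log2 CPM was 3.96 and 3.91 with NSC, 5.27 and 5.32 with SAM, 5.25 and 5.22 with B12 + MAT2Ai, and 5.70 and 4.93 with B12, in MEF 61.3 and 61.5. The NSC libraries had the lowest values of all 8. Against SAM, 52 members fell with NSC (median log2 fold change −1.45), where 4.42% of all genes fell and 5.10% rose. Against B12 + MAT2Ai, 51 fell (median −1.38), where 1.83% of all genes fell and 1.76% rose. Against the mean of the other 3 treatments, 53 fell (median −1.43), where 1.68% of all genes fell and 1.39% rose. These comparisons share the NSC libraries and do not count as separate evidence.

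**Figure D2:**
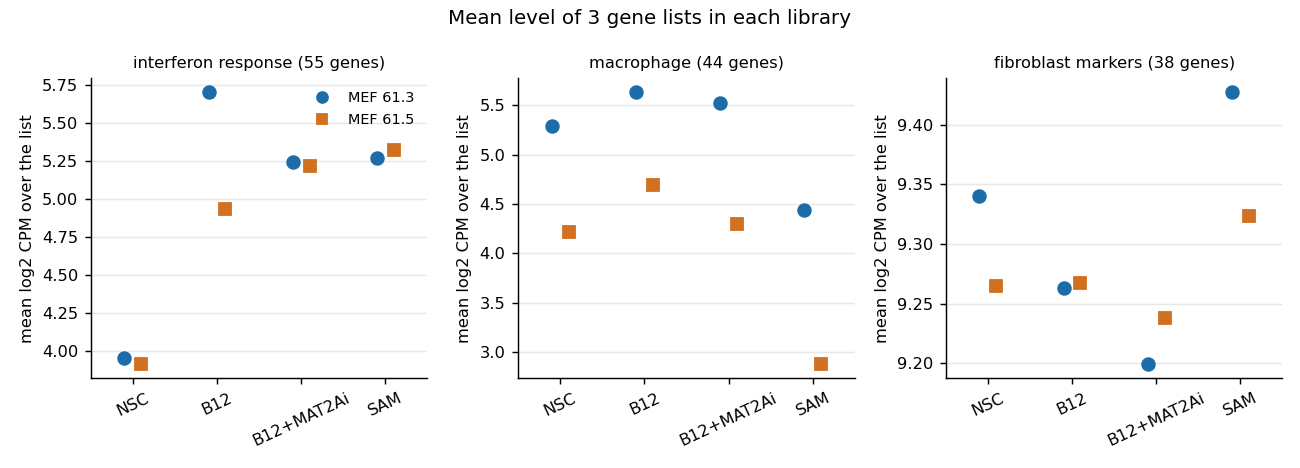
Mean log2 CPM over the interferon response, macrophage and fibroblast lists in each of the 8 libraries, by treatment and MEF line (1 point per library). The interferon response list is lowest in the NSC libraries (3.96 and 3.91), whereas the macrophage list is lowest in the SAM library of MEF 61.5 and the fibroblast list lies between 9.20 and 9.43 throughout.

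Among the effectors of the response, Isg15, a ubiquitin-like protein joined to others during infection, had 16.1 and 16.7 CPM with NSC (MEF 61.3 and 61.5), against 92.0 and 53.6 CPM with B12. Its log2 fold change was −2.15 ± 0.24 (adjusted p = 0.00167). The groups did not overlap, and the NSC libraries were nearly equal. Ifit1, which binds viral RNA ends, had 26.4 and 34.6 CPM with NSC, against 142 and 85.4 CPM with B12 (−1.89 ± 0.20, adjusted p = 0.00144). Rsad2 (viperin), an antiviral enzyme, had 2.21 and 2.67 CPM with NSC, against 17.5 and 5.65 CPM with B12 (−2.13 ± 0.34, adjusted p = 0.0091). For both genes the B12 library of MEF 61.3 stood highest. The Mx1 transcript had 1.59 and 2.24 CPM with NSC, against 11.4 and 5.23 CPM with B12 (−2.06 ± 0.33, adjusted p = 0.00853).

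Oas genes encode synthetases that make oligoadenylates on sensing duplex RNA and thereby switch on RNase L. Oas3 had the largest fall of any called gene, with 0.501 and 0.432 CPM with NSC (17 reads in each library), against 8.83 and 2.16 CPM with B12 (−3.42 ± 0.42, adjusted p = 0.00264). Oas1a had 7.69 and 6.94 CPM with NSC, against 47.7 and 21.7 CPM with B12 (−2.21 ± 0.30, adjusted p = 0.00449). Neither gene overlapped between groups. Oas1a and Oas1g are close relatives, as are Ifit3 and Ifit3b, and how reads were divided between them is uncertain. Of gene families grouped after the values were seen, 7 of 8 Oas genes fell, as did 5 of 6 Ifit genes, 8 of 11 guanylate-binding proteins, 7 of 8 immunity-related GTPases, 9 of 13 Ifi200 genes, 7 of 7 Schlafen genes and 4 of 4 Phf11 genes. Of 50 Trim genes 11 fell, and of 12 Parp genes 4. Among the GTPases, Gbp3 had 26.0 and 22.4 CPM with NSC, against 109 and 57.6 CPM with B12 (−1.76 ± 0.21, adjusted p = 0.00234). Gbp3 was picked after its values were seen.

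**Figure D3:**
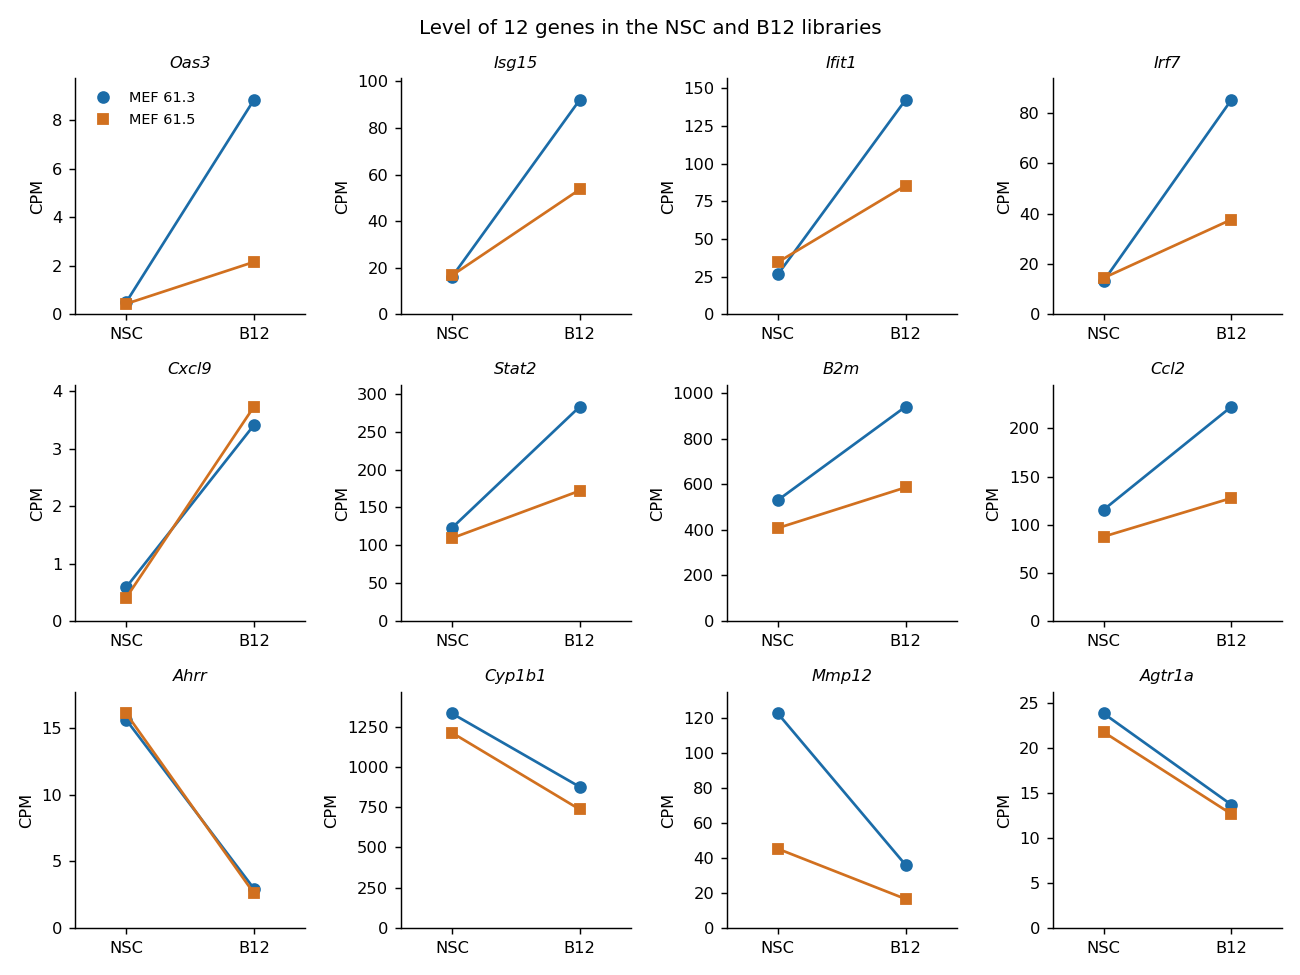
CPM of 12 genes in the NSC and B12 libraries, with a line joining the libraries of each MEF line (vertical axes start at 0 and differ between panels). Oas3, Isg15 and Irf7 are at nearly the same level in both NSC libraries and higher with B12, most of all in MEF 61.3, whereas Ahrr, Cyp1b1, Mmp12 and Agtr1a are higher with NSC.

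The transcription factor genes Stat2 and Irf9 fell, with log2 fold changes smaller than the median of the list. Stat2 had 123 and 109.5 CPM with NSC, against 283 and 172 CPM with B12 (−0.94 ± 0.12, adjusted p = 0.00317). Irf9 had 47.4 and 51.4 CPM with NSC, against 90.0 and 71.3 CPM with B12 (−0.71 ± 0.10, adjusted p = 0.00612). Neither gene overlapped between groups. The feedback inhibitor Usp18 fell further (−2.02 ± 0.24, adjusted p = 0.00234). Of 22 receptors and signalling genes, 5 fell and 0 rose. The type I receptor gene Ifnar1 had 141 and 115 CPM with NSC, against 137 and 119 CPM with B12, and the kinase gene Jak1 had 383 and 314 CPM with NSC, against 363 and 311 CPM with B12. Their log2 fold changes were −0.00 ± 0.06 and 0.05 ± 0.06, and both overlapped between groups. Stat2, Irf9, Usp18, Ifnar1 and Jak1 are named as parts of the pathway, after their values were seen.

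Among sensors and the factors they activate, 11 of 21 genes fell and 0 rose. Irf7, the transcription factor that amplifies interferon production, fell most, with 13.3 and 14.5 CPM with NSC, against 85.3 and 37.7 CPM with B12 (−2.10 ± 0.28, adjusted p = 0.00371). Ifih1 (MDA5) and Ddx58 (RIG-I), the cytoplasmic sensors of viral RNA, had log2 fold changes of −1.02 ± 0.13 and −0.75 ± 0.10 (adjusted p = 0.00271 and 0.00325). Dhx58, Zbp1, Irf5, Tlr2, Tlr3, Tlr4, Tlr7 and Tlr13 also fell. Against SAM, 4 of the 21 genes were higher with NSC and 6 were lower (median log2 fold change 0.02). Of all genes tested, 5.10% were higher with NSC than with SAM and 4.42% were lower. Of 10 Toll-like receptor genes, which macrophages also express, 6 were higher with NSC than with SAM and 1 was lower (median 0.61). The adaptors and kinase between sensor and factor (Mavs, Tmem173, Ticam1, Myd88, Traf3 and Tbk1), Irf3 and the DNA sensor Cgas were not called. Of 21 interferon genes, none passed the filter. They had 5 and 10 reads in all with NSC and 6 and 6 with B12, every read from Ifnz, so that a difference in interferon transcripts was not detectable at this depth.

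Class I antigen presentation displays peptides from inside the cell to T cells. Of 23 genes for class I and class II presentation, 11 fell and 0 rose (median log2 fold change −0.69). Nlrc5, the activator of class I genes, had 10.5 and 5.24 CPM with NSC, against 25.3 and 13.2 CPM with B12 (−1.30 ± 0.18, adjusted p = 0.00438). B2m, the shared light chain, had 530.2 and 408 CPM with NSC, against 939.9 and 586 CPM with B12 (−0.69 ± 0.12, adjusted p = 0.0141). Both were lower in both MEF lines without overlap. The peptide transporter gene Tap1 fell (−0.77 ± 0.14, adjusted p = 0.0162), as did the heavy chain gene H2-D1 (−0.63 ± 0.13, adjusted p = 0.0303), whose groups overlapped. The heavy chain genes are alike in sequence, and their reads may have been split or misassigned between them. The class II activator Ciita, the invariant chain Cd74 and the class II chains were not called. The count of 11 was 1 without the NSC library of MEF 61.3, 6 without the B12 library of MEF 61.3, 4 without the B12 + MAT2Ai library of MEF 61.3, 7 without the NSC library of MEF 61.5, 4 by DESeq2 and 0 with robust estimation or without MEF as a term.

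Among chemokines, which draw leukocytes to a tissue, 5 of 22 CC and 2 of 12 CXC genes fell and 0 rose, with median log2 fold changes of −0.36 and −0.06 (families grouped after their values were seen). Against SAM, 6 CC genes were higher with NSC and 1 was lower, with a median of 0.28, beside 5.10% and 4.42% of all genes. Cxcl9 had 0.589 and 0.407 CPM with NSC, against 3.41 and 3.73 CPM with B12 (−2.85 ± 0.23, adjusted p = 0.000216). Of the 52 interferon response genes that fell it was the 1 with a larger difference in MEF 61.5 (−3.03) than in MEF 61.3 (−2.42), and its call held under every alternative tried. Ccl2, which recruits monocytes, had 116 and 87.7 CPM with NSC, against 222 and 128 CPM with B12 (−0.74 ± 0.09, adjusted p = 0.00242). With SAM, Ccl2 had 127 and 78.9 CPM, and its log2 fold change for NSC over SAM was 0.01 ± 0.09. Of 41 inflammatory and secretome genes, 6 fell (Ccl2, Ccl7, Ccl8, Tnf, Il1rn and Il33) and 1 rose (Igfbp6), with a list median of −0.01.

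Several macrophage genes fell as well. Of 44 macrophage genes, 12 fell and 0 rose, beside 1.62% and 0.284% of all genes tested. The median log2 fold change was −0.45 (−0.39 in MEF 61.3 and −0.47 in MEF 61.5). The difference was larger in MEF 61.5 for 30 of the 44, but in MEF 61.3 for 53 of 55 interferon response genes. Against the mean of the other 3 treatments, 5 macrophage genes rose and 1 fell (median 0.12), where 1.39% and 1.68% of all genes did. The summed level of the macrophage genes was 6186 and 3009 CPM with NSC, against 7570 and 4092 CPM with B12. Both NSC libraries lay below both B12 libraries for 2 of the 44, since levels in MEF 61.3 exceeded those in MEF 61.5 for 43 genes with NSC and for 43 with B12. Siglec1, a macrophage receptor that interferon also induces, had 42.7 and 16.1 CPM with NSC, against 93.3 and 38.7 CPM with B12 (−1.19 ± 0.10, adjusted p = 0.000216). Lyz2, the lysozyme of myeloid cells, had 2498 and 1404 CPM with NSC, against 3106 and 1879 CPM with B12 (−0.37 ± 0.15, adjusted p = 0.322). Of the 9 defining markers, Tyrobp, C1qa and Ctss fell and none was at 0. The count of 12 was 1 without the NSC library of MEF 61.3, 7 without that of MEF 61.5, 28 without the B12 or SAM library of MEF 61.3, 27 without the SAM library of MEF 61.5, 7 when B12 + MAT2Ai lost its MEF 61.3 library and 8 when it lost its MEF 61.5 library.

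Between NSC and SAM the macrophage and interferon lists moved in opposite directions. The summed macrophage level was 6186 and 3009 CPM with NSC, against 2748 and 883 CPM with SAM. Of 44 macrophage genes, 38 were called higher with NSC (median log2 fold change 0.99), beside 5.10% of all genes tested. The summed interferon response level was 1585 and 1471 CPM with NSC, against 3150 and 3277 CPM with SAM. Between NSC and B12 it was 1585 and 1471 CPM with NSC, against 4239 and 2566 CPM with B12. The part of macrophage content in the fall of the interferon genes between NSC and B12 was not tested.

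**Figure D4:**
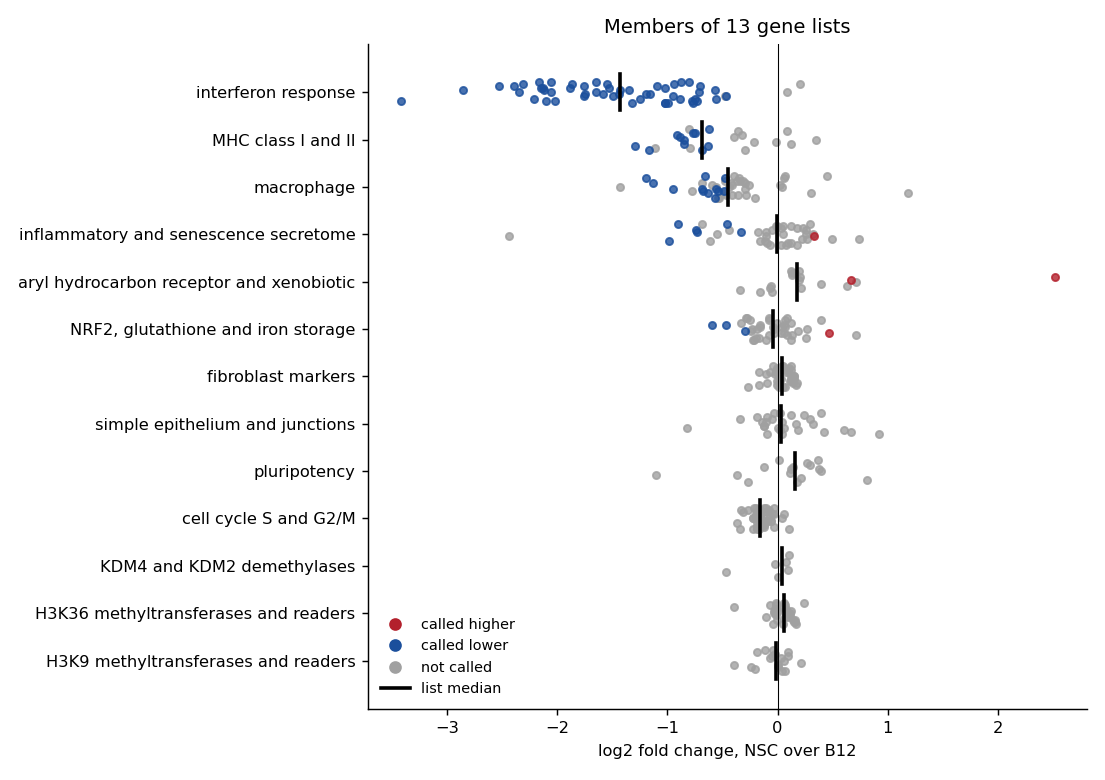
Log2 fold change of NSC over B12 for every tested member of 13 gene lists (1 point per gene, the vertical bar is the list median). The interferon response list stands at a median of −1.43 with 52 of 55 genes called lower, and the lists of demethylases, H3K36 and H3K9 enzymes, fibroblast markers, pluripotency, epithelium and cell cycle hold no called gene.

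Among the 55 genes that rose, Ahrr had the largest fold change. It is a target of the aryl hydrocarbon receptor and represses that receptor in turn. Ahrr (chr13:74211118-74292331, minus strand) had 15.6 and 16.1 CPM with NSC, against 2.95 and 2.60 CPM with B12 (2.52 ± 0.11, adjusted p = 3.08e-06). The replicates nearly coincided within each treatment, and the call held under every alternative tried, with log2 fold changes of 2.43 to 2.60. Ahrr had 3.58 and 3.25 CPM with SAM and 3.36 and 3.26 CPM with B12 + MAT2Ai. Its log2 fold change was 2.22 ± 0.11 for NSC over SAM (adjusted p = 2.54e-06) and 2.26 ± 0.11 for NSC over B12 + MAT2Ai (adjusted p = 9.40e-06), so that the NSC libraries stood apart from all others.

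Cyp1b1, a monooxygenase that metabolises aromatic compounds and another target of the receptor, had 1332 and 1212 CPM with NSC, against 876 and 736 CPM with B12 (0.66 ± 0.07, adjusted p = 0.00128). Both NSC libraries lay above all other libraries, of which the highest had 1012 CPM (B12 + MAT2Ai, MEF 61.3). Cyp1a1, a widely used readout of the receptor, did not pass the filter, with 4 and 3 reads with NSC, 0 and 1 with B12 and 0 in the SAM and B12 + MAT2Ai libraries. Ahrr and Cyp1b1 were the only called members of the 18 measured genes of this response (median log2 fold change 0.18). The receptor gene Ahr had a log2 fold change of −0.16 ± 0.07 (adjusted p = 0.379), and its targets Tiparp and Nqo1 had 0.19 ± 0.06 (adjusted p = 0.21) and 0.40 ± 0.12 (adjusted p = 0.16). Tiparp had 33.5 and 36.8 CPM with NSC, 32.7 and 37.9 CPM with SAM, 33.5 and 36.4 CPM with B12 + MAT2Ai and 29.2 and 32.4 CPM with B12. Nqo1 had 8.72 and 12.8 CPM with NSC, 9.07 and 11.6 CPM with SAM, 7.09 and 8.0 CPM with B12 + MAT2Ai and 7.97 and 8.25 CPM with B12. For both genes the NSC libraries lay above the B12 libraries and overlapped with those of SAM.

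The stretch before the start of Ahrr is printed because it is the gene with the largest rise, and its capitals mark the core GCGTG that the receptor and its partner ARNT bind (CACGC on the other strand). The window is chr13:74292332-74292468 on the minus strand (RefSeq, GRCm38.p6). It holds the core 3 times. The core is short and common, with a match in 17 of 34 promoters of genes that rose (50%), 61 of 225 of genes that fell (27.1%) and 5668 of all 12008 (47.2%), over the same 250 bases.
Ahrr: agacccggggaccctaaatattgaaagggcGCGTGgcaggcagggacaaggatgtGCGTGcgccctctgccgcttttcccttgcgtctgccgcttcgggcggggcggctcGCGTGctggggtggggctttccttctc

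**Figure D5:**
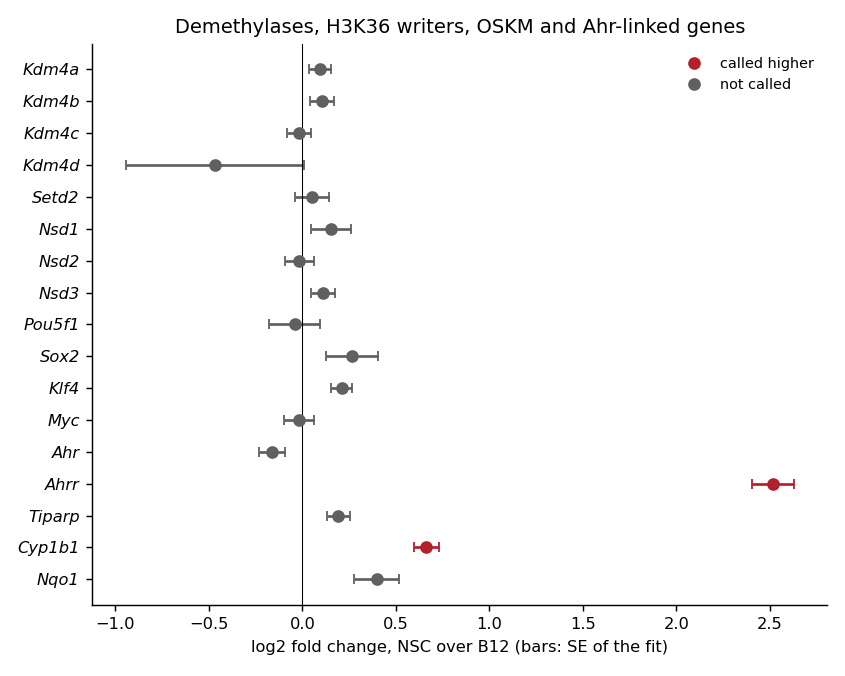
Log2 fold change of NSC over B12 for KDM4 demethylases, H3K36 methyltransferases, the OSKM factors and genes linked to the aryl hydrocarbon receptor (points are estimates from the edgeR model, bars are their SE). Ahrr (2.52) and Cyp1b1 (0.66) were called, and the others were not.

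The other genes that rose had smaller changes and varied functions. Mmp12, the macrophage elastase, was the only other gene to rise by more than 2-fold, with 123 and 45.3 CPM with NSC, against 36.1 and 16.6 CPM with B12 (1.62 ± 0.11, adjusted p = 0.000105). Mmp12 is not in the macrophage list, which had a negative median, and it moved the other way. With B12 + MAT2Ai, Mmp12 had 80.6 and 27.8 CPM, and with SAM it had 16.6 and 4.87 CPM. Atp6v0d2, a proton pump subunit of osteoclasts, rose too (0.79 ± 0.17, adjusted p = 0.0395). Of 22 osteoclast-like and lipid-associated macrophage genes, 2 rose and 2 fell, with a median log2 fold change of −0.10. Of all genes tested, 0.284% rose and 1.62% fell. Abcg1, which exports cholesterol, had 5.89 and 2.47 CPM with NSC, against 3.12 and 1.5 CPM with B12 (0.84 ± 0.14, adjusted p = 0.01). Its highest levels were with B12 + MAT2Ai, at 20.5 and 10.1 CPM. Irf4, an interferon regulatory factor of lymphoid and myeloid cells, had 3.15 and 2.54 CPM with NSC, against 1.46 and 1.47 CPM with B12 (0.95 ± 0.20, adjusted p = 0.034). It rose while Irf5, Irf7 and Irf9 fell. The calls of Irf4, Atp6v0d2 and Abcg1 were each lost without the NSC library of MEF 61.3.

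Outside myeloid genes, Agtr1a, an angiotensin receptor, had 23.9 and 21.8 CPM with NSC, against 13.7 and 12.7 CPM with B12 (0.79 ± 0.07, adjusted p = 0.00055). Itih5, a hyaluronan-binding matrix protein, had 92.0 and 93.1 CPM with NSC, against 50.9 and 57.3 CPM with B12 (0.78 ± 0.07, adjusted p = 0.000324). In both genes the NSC libraries exceeded all 6 others. Adh7, an alcohol dehydrogenase that oxidises retinol, had 25.3 and 23.9 CPM with NSC, against 14.4 and 15.1 CPM with B12 (0.73 ± 0.09, adjusted p = 0.00234). With SAM, which like NSC came without added B12, Adh7 had 25.1 and 26.5 CPM (NSC over SAM −0.07 ± 0.08), and with B12 + MAT2Ai it had 13.8 and 11.8 CPM. For Adh7 the NSC and SAM libraries thus lay above those with B12 and with B12 + MAT2Ai. Whether added B12 had a part in this was not tested. The retinoic acid hydroxylase gene Cyp26b1 fell, with 70.7 and 66.3 CPM with NSC, against 88.9 and 95.7 CPM with B12 (−0.43 ± 0.07, adjusted p = 0.00666).

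Of 43 imprinted genes 3 rose and 0 fell, beside 0.284% and 1.62% of all genes tested. Those that rose were the cell cycle inhibitor Cdkn1c, the Notch-like ligand Dlk1 and the retrotransposon-derived Rtl1. Cdkn1c had 559 and 525 CPM with NSC, against 396 and 385 CPM with B12 (0.47 ± 0.07, adjusted p = 0.00563). Dlk1 had 1768 and 1495 CPM with NSC, against 1375 and 1217 CPM with B12 (0.33 ± 0.06, adjusted p = 0.0195). Neither overlapped between groups, and both lost their call without either NSC library. Col2a1, the collagen of cartilage, rose (0.78 ± 0.14, adjusted p = 0.0151), with 37.7 and 66.2 CPM with NSC, against 18.1 and 44.4 CPM with B12, which overlap. The chondrocyte markers Sox9 and Acan were not called, with log2 fold changes of −0.15 and −0.46. Of 20 chondrocyte and bone genes, 1 rose and 0 fell, with a median of −0.12. Among signalling genes Gdf10, Id4 and the Wnt inhibitor Dkk2 rose and the Wnt modulator Sfrp4 fell.

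Of 41 genes of the oxidative stress factor NRF2, glutathione and iron storage, 3 fell and 1 rose, and of 18 metal genes 1 fell. Of all genes tested, 1.62% fell and 0.284% rose. In the lists of the ATF4 amino acid response (39 genes), endoplasmic reticulum stress (25 genes) and heat shock (20 genes) 0 were called. Hmox1, which breaks down haem, had 174 and 124 CPM with NSC, against 276 and 179.5 CPM with B12 (−0.60 ± 0.12, adjusted p = 0.0348). With SAM, Hmox1 had 144 and 63.8 CPM, and its log2 fold change for NSC over SAM was 0.60 ± 0.13 (adjusted p = 0.0134). Akr1b8 and Gclm, other targets of NRF2, fell by 0.47 and 0.30 on the log2 scale, whereas Aox1 rose by 0.47. Tfrc, the transferrin receptor, had 76.4 and 39.2 CPM with NSC, against 123 and 57.2 CPM with B12 (−0.62 ± 0.07, adjusted p = 0.00242). The groups overlapped for Tfrc because MEF 61.3 had the higher level under both treatments. The matrix protease gene Plau fell by 0.49 on the log2 scale.

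The genes for the enzymes that NSC inhibits were not called. Kdm4a had 89.7 and 90.5 CPM with NSC, against 82.1 and 86.6 CPM with B12 (0.10 ± 0.06, adjusted p = 0.562). Kdm4b had 36.5 and 36.2 CPM with NSC, against 32.9 and 34.6 CPM with B12 (0.11 ± 0.07, adjusted p = 0.558). For both, the NSC libraries were slightly the higher without overlap. Kdm4c had a log2 fold change of −0.02 ± 0.06, and Kdm4d, at 0.178 to 0.43 CPM, one of −0.47 ± 0.48. Of 24 other demethylase genes, 30 H3K36 methyltransferases and readers and 18 H3K9 methyltransferases and readers, 0 were called, with medians of 0.04, 0.06 and −0.01. Setd2, the methyltransferase that makes H3K36me3, had 132 and 99.6 CPM with NSC, against 109 and 112 CPM with B12 (0.05 ± 0.09, adjusted p = 0.862). These are transcript levels, and neither histone marks nor transcription starting inside genes can be read from counts per gene.

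Reprogramming genes had no call. Pou5f1 had 3.42 and 8.62 CPM with NSC, against 4.13 and 8.10 CPM with B12 (−0.04 ± 0.14, adjusted p = 0.931). Sox2, Klf4 and Myc had log2 fold changes of 0.26 ± 0.14, 0.21 ± 0.06 and −0.02 ± 0.08. Counts per gene do not separate the cassette from the cell's own copies. For Pou5f1 the MEF lines differed more than the treatments, with MEF 61.5 higher under both. Nanog was near the lower limit of the filter (0.258 to 0.61 CPM), and 0 of 16 pluripotency genes, 28 epithelial genes and 38 fibroblast markers were called. With SAM, Pou5f1 had 10.2 and 20.8 CPM. Cdh1, the epithelial cadherin, had 1.88 and 2.06 CPM with NSC, 6.86 and 9.82 CPM with SAM and 1.95 and 2.26 CPM with B12.

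Some lists without a call against B12 shifted slightly in most members. Over all 19392 genes tested, 5639 were lower with NSC in both MEF lines and 5344 were higher in both. Of 26 genes of cholesterol synthesis and uptake 0 were called and 22 were lower with NSC in both MEF lines, with a median log2 fold change of −0.14. Of 55 cell cycle genes 0 were called, but 46 were lower with NSC in both MEF lines, with a median log2 fold change of −0.16. Against SAM, 28 of these 55 were called lower (4.42% of all genes). The count was 6 against B12 + MAT2Ai (1.83% of all genes) and 12 against the mean of the other 3 treatments (1.68%). The replication enzyme gene Top2a had 218 and 218 CPM with NSC, against 236 and 244 CPM with B12 (−0.14 ± 0.06, adjusted p = 0.374). All 13 mitochondrially encoded messenger genes were higher with NSC in both MEF lines and 0 were called, with a median of 0.36 (0.58 in MEF 61.3 and 0.11 in MEF 61.5). Of the mitochondrially encoded ribosomal RNA genes, 1 was called higher and 1 was not called. Mitochondrial transcripts held 2.33% of reads in the NSC library of MEF 61.3 and 1.69% in that of MEF 61.5, against 1.61% and 1.56% in the B12 libraries. With mitochondrially encoded genes left out before scaling, 371 genes were called. The genes of methionine and B12 handling had no call in 24 and 13 members.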

How the data were processed

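RNA was taken from MEFs of 2 embryos under 4 treatments, and libraries were made with a stranded mRNA kit. The authors deposited unscaled read counts for each gene, made by aligning reads with STAR (2.5.2b per the submitters' processing notes) to mm10 (GRCm38), counting them with featureCounts in the reverse-stranded setting and summing technical replicates. Libraries held 27498180 to 38565685 counted reads (NSC 35832709 and 38565685, B12 35668982 and 37761374), and 26645 to 27835 genes had a read. Of 55487 genes, 55227 had an identifier with a symbol in a GENCODE release on GRCm38, and 260 had none.

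The software was edgeR 4.0.16 with limma 3.58.1 under R 4.3.3. Genes were kept by filterByExpr with a minimum count of 10, which left 19392. TMM factors were used, and all 8 libraries entered 1 quasi-likelihood model of treatment plus MEF (degrees of freedom 3 residual, 7.92 prior). P-values were adjusted by Benjamini-Hochberg over all genes tested, and called genes are those with an adjusted p below 0.05. The median SE of a log2 fold change was 0.0988, and 2412 genes had an unadjusted p below 0.05. For differences within a MEF, log2 CPM took a prior count of 2, and no test was run. Libraries of 1 MEF line share an embryo, hence the block, and deviations from treatment means correlated at 0.424 to 0.559 between same-MEF libraries. No pair of NSC or B12 libraries was as close as sampling noise (mean squared difference over its sampling variance 9.01 to 35.6). The fit was tested on simulated data without any difference between MEF lines, so that run says nothing on how such differences are handled. Alternatives were other size factors, DESeq2 1.42.0, other filters, no MEF term, only the libraries compared, robust estimation of the spread, leaving out mitochondrially encoded genes, and leaving out each library.

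The gene lists (58, of which 37 had no called member), the genes named and the comparison itself were chosen with earlier results of these data known. In NSC against B12, genes named were up to 15 that rose and 15 that fell most with a mean of at least 1 CPM, the 10 called genes of highest level, a fixed set of genes on methylation, reprogramming and the aryl hydrocarbon receptor, and per list up to 6 called members each way by p, or the 2 of highest level where none was called. Pathway members and gene families beyond this rule were picked after their values were seen. Lists are described by counts and medians, with no set test.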

Additional observations from a re-analysis of the deposited data

How the results depend on the processing

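No call of NSC against B12 changed sign under any alternative. The median log2 fold change of the interferon response list was −1.43 and ranged from −1.85 to −0.92 when single libraries were left out. Without the replicate block (MEF as a term) calls fell to 2 (1 higher, 1 lower) for NSC against B12, 1 against SAM, 1 against B12 + MAT2Ai and 2 against the mean of the other 3 treatments, and to 1 interferon response, 0 class I and II and 0 macrophage genes. Without a filter beyond 1 read, calls were 1025 (344 higher, 681 lower), 2895, 1873 and 1835 for the same 4 comparisons, and 35 macrophage genes fell. DESeq2 called 330 genes against B12 and 1172 against SAM, and 4 class I and II genes. With only the 4 libraries compared there were 3340 calls against SAM, 2020 against B12 + MAT2Ai and 27 macrophage genes. That alternative cannot be applied to the mean of the other 3 treatments. Robust estimation called 17 interferon response, 0 class I and II and 7 macrophage genes. Leaving out single libraries gave 38 to 780 calls against B12 (9 to 358 higher, 29 to 422 lower), 605 to 2717 against SAM, 42 to 1672 against B12 + MAT2Ai and 42 to 1985 against the mean of 3. It gave 6 to 53 interferon response, 1 to 14 class I and II and 1 to 28 macrophage genes. The lowest counts against B12 came without the NSC library of MEF 61.3. With 1 library left in a treatment, that library is assumed to vary like the other groups. The cause of these differences was not tested. Of 177 named genes, 77 lost their call without the block, 65 without the NSC library of MEF 61.3 and 28 with robust estimation, and at most 22 uncalled genes had the other sign under any alternative. With the macrophage genes left out of the table, an alternative chosen after the values were seen, 368 genes were called against B12, which leaves any macrophage RNA counted under other genes in place. Depth limits what can be said of genes with few reads: Nanog, Kdm4d, Cyp1a1 and the interferon genes lay near or below the filter.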
